A study of Oryctolagus cuniculus with 12 samples.

Results

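Copper handling genes were followed by bulk RNA-seq in the full thickness rabbit ear, in normal skin and in hypertrophic scar (HS). The set held 10 gene symbols chosen by name, from the copper chaperone ATOX1 to ceruloplasmin (CP), and 9 of the 10 were found among the 29587 gene rows of the table. SOD3 was not found by its symbol. The values that chose the set were those of the row named ATOX1, because it is among the highest of the table and is higher in scar than in normal skin, so its level and its contrasts with HS and normal skin are given as a description, with no test. All 9 rows passed the filter of a mean FPKM of at least 1 (fragments relative to gene length and library size), and the 8 others were tested in every comparison.

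There were 4 groups of 3 samples, all from wild-type rabbits that the study's methods give as female and 10 to 12 weeks old, and all were harvested on day 43. NS was the ear skin of 3 unwounded, untreated rabbits. HS was untreated scar, grown from ventral wounds (4 on each ear) from which the epidermis, the dermis and the perichondrium had been removed, whereas the NS ears kept theirs. Scars of the drug-loaded MNs group received 1 separating microneedle (MN) patch per lesion, with a 5-fluorouracil prodrug in its tips, and scars of the 5-Fu injection group were injected with 120 μg of 5-fluorouracil in 0.1 mL per lesion. Both were given on days 22, 29 and 36. A group with drug-free MNs was not analysed here. The labels name 3 rabbits per group but do not tie each sample to a rabbit or lesion, so p-values measure only the spread between these samples. A sample contains epidermis, dermis and cartilage through the full thickness of the ear. In such bulk samples, fewer cells of a type and less RNA per cell cannot be told apart.

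Copper is an essential but reactive metal, and cells hand it from protein to protein rather than leaving it free. It enters through the membrane channel SLC31A1 (CTR1), whose relative SLC31A2 (CTR2) sits mainly on internal membranes. Inside the cell, ATOX1 carries copper to the pumps ATP7A and ATP7B, CCS loads it into the superoxide dismutase SOD1, and COX17 takes it towards cytochrome c oxidase in mitochondria. ATP7A loads secreted copper enzymes, among them the lysyl oxidases that cross-link collagen and the extracellular superoxide dismutase SOD3, while CP is the main copper protein of blood plasma.

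The row named ATOX1 cannot be read as the chaperone. The row (ENSOCUG00000038763) spans 33117791 to 33199104 on the minus strand of chromosome 3 in the files' coordinates, whose build is not given in the sources used here, and the table describes it as SPARC, the secreted matrix glycoprotein that binds collagen. A second row named SPARC (ENSOCUG00000012120), also described as SPARC, lies at 33118284 to 33194803 on the same strand, wholly inside the first. The gene lengths used for FPKM are 1854 bases for the outer row and 1805 for the inner row, a difference of 49 bases. The table has 2 rows described as SPARC and 0 rows described as ATOX1. In the RefSeq annotation of another rabbit assembly (mOryCun1.1), SPARC and ATOX1 are separate genes whose spans do not overlap, with 0 protein-coding genes between them.

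**Figure D1:**
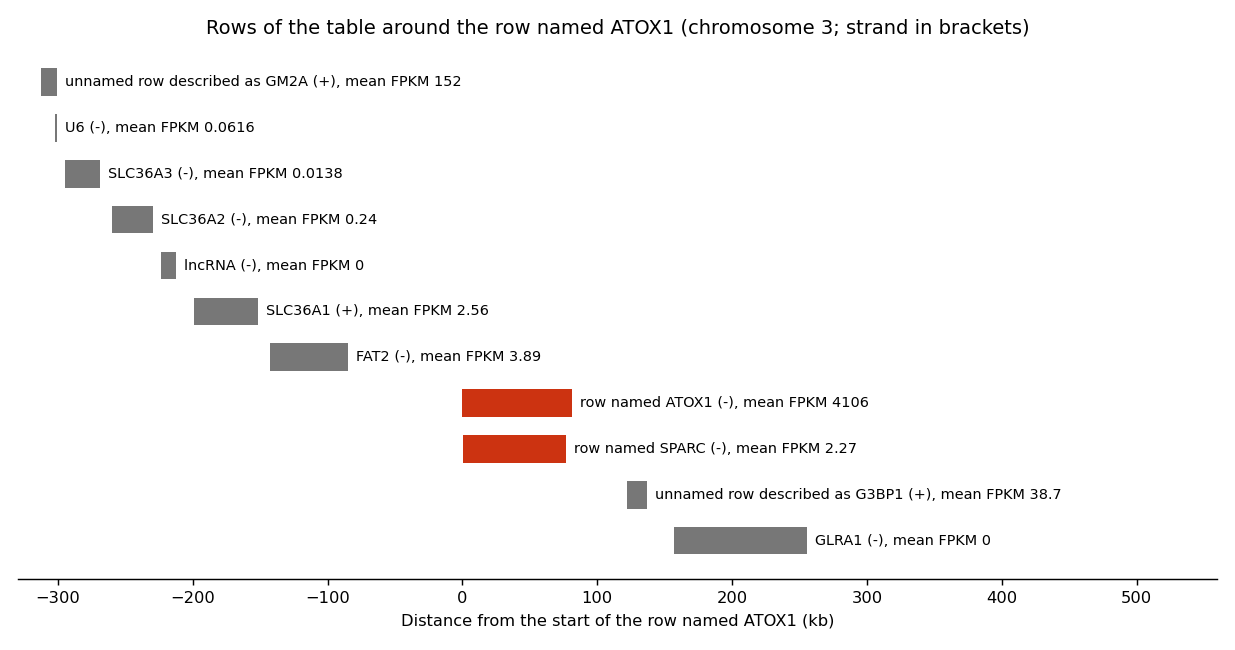
Rows of the table within 500 kb of the row named ATOX1, drawn as bars against the distance in kb from its start, with strand and mean FPKM over 12 samples. The row named SPARC (mean FPKM 2.27) lies within the span of the row named ATOX1 (mean FPKM 4106), and no other row of the window overlaps either of them.

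The reads of the locus fell almost wholly on the outer row. The row named ATOX1 had 30745 to 156656 reads in a sample, 0.292 to 1.12% of all reads on genes, and the row named SPARC had 12 to 71 reads. The inner row thus held 0.0194 to 0.123% of the reads of both rows. By mean FPKM the outer row ranked 12 of the 29587 rows and the inner row ranked 11767. How the authors' counting assigned a read that matches both rows is not given in the sources used here, and exons are not listed in the table, so the reads of a true ATOX1 transcript could not be told apart from those of SPARC. Of 624 pairs of protein-coding rows in which 1 lies inside the other on the same strand, 72 also share the same protein description.

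Described as it stands, the row named ATOX1 was higher in every HS sample than in every NS sample. Its FPKM was 2985, 1756 and 1413 in NS, and 5707, 5940 and 6894 in HS. These groups do not overlap, and their means were 2051 ± 827 (SD, n = 3) in NS and 6180 ± 629 (SD, n = 3) in HS, 3.01 times as high. Its FPKM was 4371, 4460 and 5307 in drug-loaded MNs, all below HS and above NS. With 5-Fu injection it was 2662, 5126 and 2656, where replicate 2 lay near HS and the other samples lay within the NS range. For drug-loaded MNs against 5-Fu injection, the contrast that did not enter the choice, the log2 fold change was 0.50 (SE 0.34, 95% interval -0.24 to 1.24) with an adjusted p of 0.490 in limma, and the groups overlap. With 5-Fu injection replicate 2 left out this contrast was 0.82, the highest of its leave-one-out values, and quantile normalization gave 0.98. It was not called under any of these.

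The row named SPARC followed the row that encloses it only loosely. Its FPKM was 2.60, 2.21 and 1.18 in NS, 2.82, 3.46 and 3.16 in HS, 3.27, 1.97 and 2.11 in drug-loaded MNs, and 0.532, 1.99 and 1.97 with 5-Fu injection. HS lay above NS in all samples here too, but the means were 1.58 times apart and the drug-loaded MNs overlap with both groups. The ratio of the outer to the inner row ran from 793 in NS replicate 2 to 5006 in 5-Fu injection replicate 1, a library with 12 reads on the inner row. Across the 12 samples the Pearson r of log2(FPKM + 1) between both rows was 0.59, which placed SPARC at rank 1528 among the 13287 genes tested, and it was 0.53 after the group means were removed. These points share libraries and their 4 groups, the inner row has few reads, and the correlation is a description.

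The rows most like the row named ATOX1 were GLT8D1 (Pearson r 0.98), a glycosyltransferase-like protein, TENM3 (0.96), a teneurin of cell contacts, SERPINF1 (0.96), a secreted collagen-binding serpin, PCOLCE (0.96), which enhances procollagen processing, and GPX8 (0.96), a peroxidase of the endoplasmic reticulum. COL1A2, COL3A1 and COL1A1, the chains of fibrillar collagens, had r of 0.95, 0.94 and 0.94 and ranks of 9, 15 and 18. Within groups, with the group means removed, GLT8D1 remained at rank 1 with an r of 0.94 and COL1A1 had 0.69. The collagen cross-linking enzyme LOXL1 had an r of 0.88, and LOX had -0.01.

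The other copper genes and the expressed neighbours had a lower r with this row than the 5 rows most like it. That order was set by the choice, since those rows were picked for the highest r. The r over the 12 samples also includes the rise from NS to HS for which the row was picked, and is a description. Among the copper genes, r with the row named ATOX1 was 0.66 for SLC31A1, 0.50 for ATP7A, 0.23 for CCS, 0.22 for ATP7B, 0.03 for CP, -0.17 for SLC31A2, -0.26 for COX17 and -0.50 for SOD1. Of 11 rows that start within 500 kb, itself included, 6 had a mean FPKM of at least 1. Besides SPARC, these were a row described as GM2A (r 0.82, mean FPKM 152), which encodes a lysosomal activator of ganglioside breakdown, the amino acid transporter SLC36A1 (0.64, mean FPKM 2.56), the keratinocyte cadherin FAT2 (-0.31, mean FPKM 3.89) and a row described as the stress granule protein G3BP1 (-0.07, mean FPKM 38.7).

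**Figure D2:**
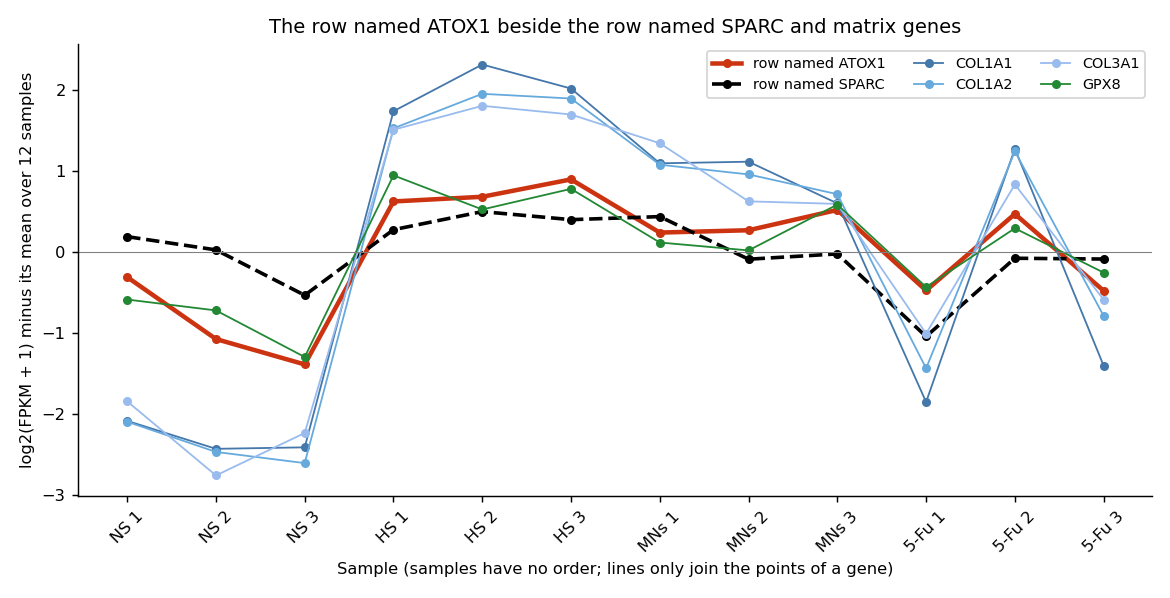
Log2(FPKM + 1) of 6 rows in the 12 samples, each minus its own mean over samples. The row named ATOX1, COL1A1, COL1A2, COL3A1 and GPX8 are all higher in HS than in NS, with 5-Fu injection replicate 2 high among its group. From NS to HS, COL1A1 (mean FPKM 772 and 15711) changes more than the row named ATOX1 (2051 and 6180). The row named SPARC (dashed) varies less. In drug-loaded MNs replicate 3 the row named ATOX1 is the highest of its group, whereas the collagens are at their lowest there.

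Among the 8 other copper genes, the test called 1 gene in 1 comparison, SLC31A1 in 5-Fu injection against HS. A gene was called at an adjusted p under 0.05 with an absolute log2 fold change above 1. In HS against NS, 0 of 8 were called, where 5.00% of all 13287 genes tested were, with 1 of 8 at an unadjusted p under 0.05 beside 23.4% of all genes. In 5-Fu injection against HS, 1 of 8 was called against a background of 2.29%, with 3 of 8 at an unadjusted p under 0.05 beside 26.0% of all genes. In drug-loaded MNs against HS, 0 of 8 were called against 0.00753% (1 gene) of all genes, and 0 of 8 had an unadjusted p under 0.05 beside 8.90% of all genes. In drug-loaded MNs against 5-Fu injection, where the row named ATOX1 was also tested, 0 of 9 were called against 0% of all genes. There, 2 of 9 had an unadjusted p under 0.05 beside 15.1% (2009) of all genes. Against NS, 0 of 8 were called for drug-loaded MNs (background 0.873%) and 0 of 8 for 5-Fu injection (background 0.00753%), with 0 of 8 at an unadjusted p under 0.05 in both, beside 12.9% and 14.9% of all genes. limma voom on the reads gave the same number of called copper genes in each comparison, and 0 genes of the whole table in drug-loaded MNs against 5-Fu injection. The median log2 fold change of the 8 genes was 0.07 in HS against NS and 0.30 in 5-Fu injection against HS, beside medians of -0.01 and 0.02 over all genes tested.

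SLC31A1, the copper uptake channel, was the only member with a call. Its FPKM was 21.3, 15.2 and 21.3 in NS, and 35.7, 31.1 and 43.2 in HS. In drug-loaded MNs it was 25.9, 21.6 and 22.3, and with 5-Fu injection it was 14.8, 22.5 and 8.11. All 3 HS samples were above the 9 others, and the 5-Fu injection samples spread widest. SLC31A1 fell in 5-Fu injection against HS, with a log2 fold change of -1.32 (SE 0.29, 95% interval -1.95 to -0.68) and an adjusted p of 0.0362 in limma. In HS against NS the log2 fold change was 0.90 (SE 0.29), below the fold threshold and with an adjusted p of 0.0870, and in drug-loaded MNs against HS it was -0.63 (SE 0.29) with an adjusted p of 0.566. After rescaling to total reads the value in HS against NS was 0.55. The difference between the treatments was 0.69 (SE 0.29, 95% interval 0.06 to 1.32), with an adjusted p of 0.308.

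The SLC31A1 call was lost with most single libraries left out, although most fold changes stayed near the main value. Without HS replicate 1, 2 or 3 the log2 fold change was -1.33, -1.43 and -1.20 (adjusted p 0.0807, 0.0808 and 0.120). Without 5-Fu injection replicate 1 it was -1.35 (adjusted p 0.0748), and without 5-Fu injection replicate 3 it was -0.96 (adjusted p 0.0991). The call held and was stronger without 5-Fu injection replicate 2 (-1.64, adjusted p 0.00621). It was also lost without the filter on low values (adjusted p 0.0619) and with only HS and 5-Fu injection in the fit (0.116). The genes most like SLC31A1 over the 12 samples were KIF3B (r 0.96), NF1 (0.96) and PEAK1 (0.96), which encode a kinesin, a Ras-inhibiting GTPase activator and a cytoskeletal kinase-like protein. The 100 genes most like it had a median gene length of 3185 bases, against 1864 for all genes tested, although its own gene model has 531. Long genes as a whole differed between HS and 5-Fu injection, and also within drug-loaded MNs. The mean log2 deviation, from each gene's mean over the samples, of the 25% longest genes minus that of the 25% shortest was 0.110 to 0.186 in HS and -0.304 to -0.0593 with 5-Fu injection, lowest in replicate 3. In drug-loaded MNs this difference was 0.104, 0.0998 and -0.0889, and in NS it was -0.0331 to 0.00385. With this length trend removed, an alternative chosen after the data had been seen, SLC31A1 was at -1.46 with an adjusted p of 0.0345.

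Cell type markers also moved with the groups. The summed FPKM of the fibroblast markers (5 of 6 found, PDGFRA absent by symbol) was 2391 to 3365 in NS, 37272 to 48613 in HS, 18833 to 27015 in drug-loaded MNs and 4952 to 26633 with 5-Fu injection. Most of this sum in HS came from COL1A1, COL1A2 and COL3A1 (mean FPKM 15711, 14066 and 8262 there), so it cannot be read as a count of fibroblasts. The summed FPKM of the keratinocyte markers (3 of 6 found, KRT14 among the absent) was 2077 to 3593, 1249 to 1854, 3565 to 8390 and 2685 to 5264 in the same order of groups. T and B cell markers (3 of 5 found, CD3E and CD3D absent) summed to 2.46 to 9.06, 1.42 to 1.92, 1.82 to 6.40 and 4.53 to 49.7, and melanocyte markers (3 of 4 found, PMEL absent) to 18.6 to 45.4, 14.5 to 38.8, 28.8 to 63.7 and 41.9 to 94.97, so both separated HS from 5-Fu injection. The part of any of these in the SLC31A1 values was not tested. Skeletal muscle markers (3 of 4 found) were low in all samples, at 2.36 to 67.9, and cartilage markers (3 of 4 found) ranged from 308 to 4726 without separating the groups.

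In its group means SLC31A2 went the other way, at lower precision. Its FPKM was 41.9, 29.4 and 29.0 in NS, 21.0, 25.3 and 25.1 in HS, 40.1, 26.2 and 56.0 in drug-loaded MNs, and 60.4, 26.5 and 24.7 with 5-Fu injection. HS was below every NS sample and every drug-loaded MNs sample. It was not called in any comparison, with log2 fold changes of -0.46 (adjusted p 0.459) in HS against NS and 0.69 (adjusted p 0.592) in drug-loaded MNs against HS, and the first was -0.81 after rescaling to total reads. SLC31A1 (92423 to 95845) and SLC31A2 (179494 to 192841) lie on the minus strand of chromosome 1. The r between them was -0.23 over the 12 samples and 0.18 within groups. The ratio of SLC31A1 to SLC31A2 by FPKM, chosen after the values were seen and given with no test, was 1.23 to 1.72 in HS, 0.509 to 0.736 in NS, 0.399 to 0.825 in drug-loaded MNs and 0.245 to 0.848 with 5-Fu injection. HS was thus the only group in which each sample had more SLC31A1 than SLC31A2 per length.

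**Figure D3:**
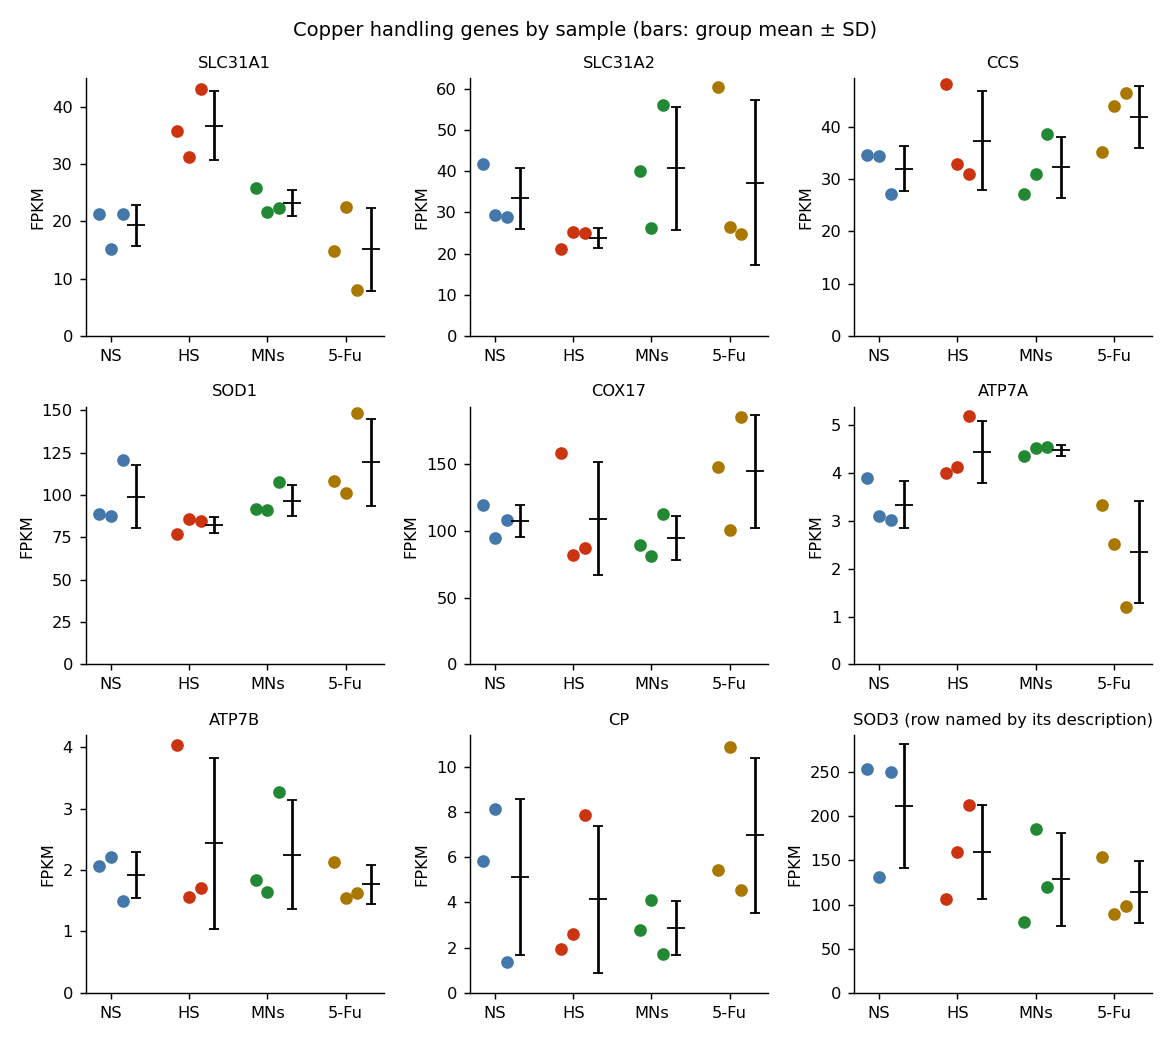
FPKM of 8 copper handling genes and of the row described as SOD3 in each of the 12 samples, by group (MNs, drug-loaded MNs; 5-Fu, 5-Fu injection), with points for samples and bars for the group mean ± SD (n = 3). SLC31A1 is highest in the 3 HS samples (31.1 to 43.2). ATP7A has its lowest mean with 5-Fu injection (1.20 to 3.32), where it overlaps with NS (3.01 to 3.90). In the panels of COX17, ATP7B and SOD3 all groups overlap. SLC31A2, CCS, SOD1 and CP each have some groups that do not.

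Of the copper pumps, ATP7A had its lowest mean with 5-Fu injection, overlapping with NS, and ATP7B did not separate any groups. ATP7A, which loads secreted copper enzymes and exports copper from most cells, had an FPKM of 3.90, 3.09 and 3.01 in NS, 4.00, 4.12 and 5.18 in HS, 4.34, 4.52 and 4.54 in drug-loaded MNs, and 3.32, 2.52 and 1.20 with 5-Fu injection. Each 5-Fu injection sample was below each sample of HS and of drug-loaded MNs. The log2 fold change was -0.75 (SE 0.23) in 5-Fu injection against HS with an adjusted p of 0.0822, and 0.76 (SE 0.23, 95% interval 0.25 to 1.27) in drug-loaded MNs against 5-Fu injection with an adjusted p of 0.250, so neither was called. Without 5-Fu injection replicate 3 the first of these was -0.47, and with the length trend removed it was -0.59. By limma voom it was -1.03 with an adjusted p of 0.0671, and with a pseudocount of 0.1 it was -0.99. ATP7A tracked SLC31A1 across the samples with an r of 0.81, the highest over the 12 samples among the copper gene pairs. Within groups it was 0.70, below the r of ATP7B with CCS (0.74) and with COX17 (0.74). The liver-type pump ATP7B stood between 1.50 and 4.04 FPKM, with HS replicate 1 at 4.04 and drug-loaded MNs replicate 3 at 3.28 above the other 10 samples. Its adjusted p was 0.621 or higher in HS against NS and in the 3 contrasts among scar groups, and its row overlaps a gene on the opposite strand (ALG11).

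Of the superoxide dismutase branch, SOD1 and its chaperone CCS, neither gene passed the test. SOD1, which removes superoxide in the cytosol, had an FPKM of 88.7, 87.9 and 121 in NS, 76.9, 85.7 and 84.5 in HS, 91.5, 91.3 and 108 in drug-loaded MNs, and 108, 101 and 149 with 5-Fu injection. All 3 HS samples were below the 9 others. The log2 fold change was 0.51 (SE 0.17, 95% interval 0.13 to 0.89) in 5-Fu injection against HS with an adjusted p of 0.104, and -0.25 (SE 0.17) in HS against NS with an adjusted p of 0.430. After rescaling to total reads, where the median of all genes in this comparison was -0.33, the second was -0.61 with an adjusted p of 0.0359. That value is past the p threshold but below the fold threshold. The chaperone CCS ranged from 27.1 to 48.1 FPKM over all samples, with an adjusted p of 0.591 in HS against NS and 0.393 in drug-loaded MNs against 5-Fu injection. Its 5-Fu injection samples (35.1 to 46.5) lay above its NS samples (27.1 to 34.6), with an adjusted p of 0.388 in limma. The ratio of SOD1 to CCS by FPKM was 2.31 ± 0.62 in HS, 3.19 ± 1.09 in NS, 3.04 ± 0.30 in drug-loaded MNs and 2.86 ± 0.49 with 5-Fu injection (SD, n = 3), and all of these overlap but HS and drug-loaded MNs. The gene lengths of the other copper genes are multiples of 3, whereas that of SOD1 is 1408 bases, so their models may hold different shares of untranslated sequence and levels compared between genes carry that limit.

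SOD1 and SLC31A1 ran in opposite directions over the 12 samples (r -0.78, and -0.50 within groups), and so did SOD1 and ATP7A (r -0.77, and -0.63 within groups). These values describe samples that share their groups, libraries and the length trend above.

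The row described as extracellular superoxide dismutase (ENSOCUG00000007460, chromosome 2) is not a member by symbol and is given for completeness as SOD3. Its FPKM was 254, 131 and 250 in NS, 107, 160 and 213 in HS, 80.1, 185 and 120 in drug-loaded MNs, and 154, 89.6 and 98.7 with 5-Fu injection. All groups overlap, and the log2 fold change was -0.39 (SE 0.37) in HS against NS with an adjusted p of 0.566, or -0.76 after rescaling to total reads. Its mean FPKM in NS was above that of SOD1, at 211 ± 69.9 beside 99.1 ± 18.6 (SD, n = 3).

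COX17 and CP varied within groups as much as between them. COX17 had an FPKM of 80.8 to 185 with a gene model of 189 bases, and its adjusted p was 0.345 or higher in HS against NS and in the 3 contrasts among scar groups. HS replicate 1 stood at 158 where the other HS samples were at 81.9 and 87.2. CP, a ferroxidase that carries copper in plasma, had an FPKM of 5.81, 8.14 and 1.35 in NS, 1.95, 2.59 and 7.88 in HS, 2.76, 4.11 and 1.71 in drug-loaded MNs, and 5.45, 10.9 and 4.55 with 5-Fu injection. Drug-loaded MNs lay below 5-Fu injection in all samples, but with a log2 fold change of -1.01 (SE 0.54, 95% interval -2.20 to 0.19) the adjusted p was 0.395. Its spread was the widest of the copper genes, 8.04 times from the lowest to the highest sample.

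**Figure D4:**
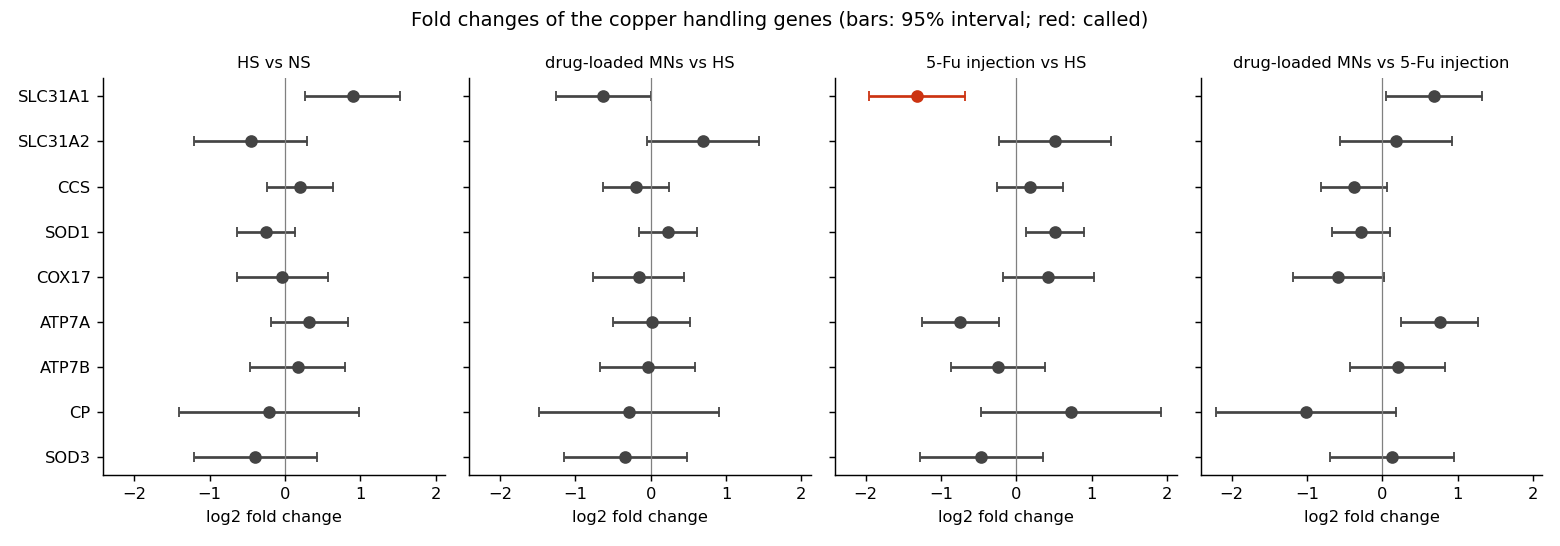
Log2 fold changes of 8 copper handling genes and of the row described as SOD3 in 4 comparisons, with 95% intervals from limma on log2(FPKM + 1). The only called value (red) is SLC31A1 in 5-Fu injection against HS, at -1.32.

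By mean FPKM over the 12 samples, the members followed the order COX17 (114), SOD1 (99.4), CCS (35.9), SLC31A2 (33.8), SLC31A1 (23.6), CP (4.77), ATP7A (3.64) and ATP7B (2.09), below the row named ATOX1 (4106). Neighbours in this order overlap in their sample ranges, except that all samples of SOD1 (76.9 to 149) were above all samples of CCS (27.1 to 48.1) and the row named ATOX1 stood above the others in each sample. SLC31A1 (8.11 to 43.2) and CP (1.35 to 10.9) overlap only at their lowest and highest samples. The lowest read count behind any value was 52 for SLC31A1, 68 for ATP7A and CP, 98 for SLC31A2, 113 for ATP7B and 176 for COX17.

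Other copper genes were taken from 6 lists, without the members above. Among 14 copper enzymes, 11 were tested, and LOXL1 and LOXL2, lysyl oxidases that cross-link collagen and elastin, rose in HS against NS. LOXL1 had an FPKM of 61.3, 47.5 and 77.7 in NS against 487, 399 and 336 in HS, and its log2 fold change was 2.71 (SE 0.28) with an adjusted p of 0.000965. LOXL2 had 49.1, 37.6 and 63.8 in NS against 265, 213 and 219 in HS, and its log2 fold change was 2.21 (SE 0.42) with an adjusted p of 0.0111. LOXL1 was 203, 211 and 181 in drug-loaded MNs, above every NS sample, and rose there against NS with a log2 fold change of 1.68 (adjusted p 0.0242). With 5-Fu injection LOXL1 was 102, 224 and 114 and fell against HS with a log2 fold change of -1.54 (adjusted p 0.0267), a call lost without any 1 of HS replicates 1, 2 and 3 or 5-Fu injection replicates 1 and 3 (adjusted p 0.0662 to 0.0991) or with only these groups in the fit (0.0986). The call in drug-loaded MNs against NS was lost without NS replicate 1 or 2 or without any drug-loaded MNs replicate (adjusted p 0.0828 to 0.104).

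LOX, the founding lysyl oxidase and a client of ATP7A, did not follow LOXL1. Its FPKM was 267, 182 and 186 in NS, 128, 216 and 260 in HS, 195, 134 and 82.7 in drug-loaded MNs, and 80.9, 88.4 and 89.3 with 5-Fu injection. NS and HS overlap, with a log2 fold change of -0.11 (SE 0.32, adjusted p 0.874), and all 5-Fu injection samples lay below HS with a log2 fold change of -1.16 (SE 0.32) and an adjusted p of 0.0615. The 11 enzymes tested had a median log2 fold change of 0.20 in HS against NS and -0.40 in 5-Fu injection against HS. With the 2 LOXL genes, 3 of 11 had an unadjusted p under 0.05 in the first comparison, beside 23.4% of all genes, and 4 of 11 in the second, beside 26.0%. The calls were 2 of 11 in the first, where 5.00% of all genes were called, and 1 of 11 in the second, where 2.29% were.

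Among 20 genes of copper uptake, trafficking and its regulators, 19 were tested and STEAP1 and STEAP2, metalloreductases that reduce iron and copper at the membrane, rose in HS against NS, 2 of 19 where 5.00% of all genes were called. STEAP1, a row named by its description, had an FPKM of 16.1, 12.3 and 15.3 in NS against 37.6, 42.96 and 49.7 in HS, and its log2 fold change was 1.52 (SE 0.24) with an adjusted p of 0.00445. STEAP2 had 2.01, 0.630 and 1.31 in NS against 5.60, 4.78 and 8.32 in HS, and its log2 fold change was 1.66 (SE 0.32) with an adjusted p of 0.0111. Both lie on the minus strand of chromosome 10, STEAP2 at 38388696 to 38404595 and STEAP1 at 38453126 to 38461654. In 5-Fu injection against HS, 0 of 19 were called by limma or by voom although 9 of 19 had an unadjusted p under 0.05, beside 2.29% called and 26.0% under that p among all genes, with a median log2 fold change of -0.12.

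Of 17 other antioxidant enzymes, 10 were tested and GPX8, PRDX4 and HMOX1 rose in HS against NS, 3 of 10 where 5.00% of all genes were called. GPX8 and PRDX4 are peroxidases of the endoplasmic reticulum, where collagen is folded, and HMOX1 breaks down heme. GPX8 had an FPKM of 21.4, 19.4 and 12.7 in NS and 63.8, 47.4 and 56.8 in HS (log2 fold change 1.62, adjusted p 0.00379). PRDX4 had 31.5, 26.1 and 19.3 in NS and 60.8, 57.4 and 67.1 in HS (log2 fold change 1.26, adjusted p 0.0120). After rescaling to total reads, where the median of all genes in this comparison was -0.33, PRDX4 was at 0.91 and below the fold threshold. HMOX1 had 34.7, 40.3 and 24.1 in NS and 96.3, 61.0 and 105 in HS (log2 fold change 1.37, adjusted p 0.0271), and its call was lost without NS replicate 1 or 3 or without HS replicate 1 or 3 (adjusted p 0.0772 to 0.0973). The log2 fold changes of the 10 ran from -1.51 to 1.62 in HS against NS, with a median of -0.06 beside -0.01 over all genes tested. There, 5 of 10 had an unadjusted p under 0.05, beside 23.4% of all genes.

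**Figure D5:**
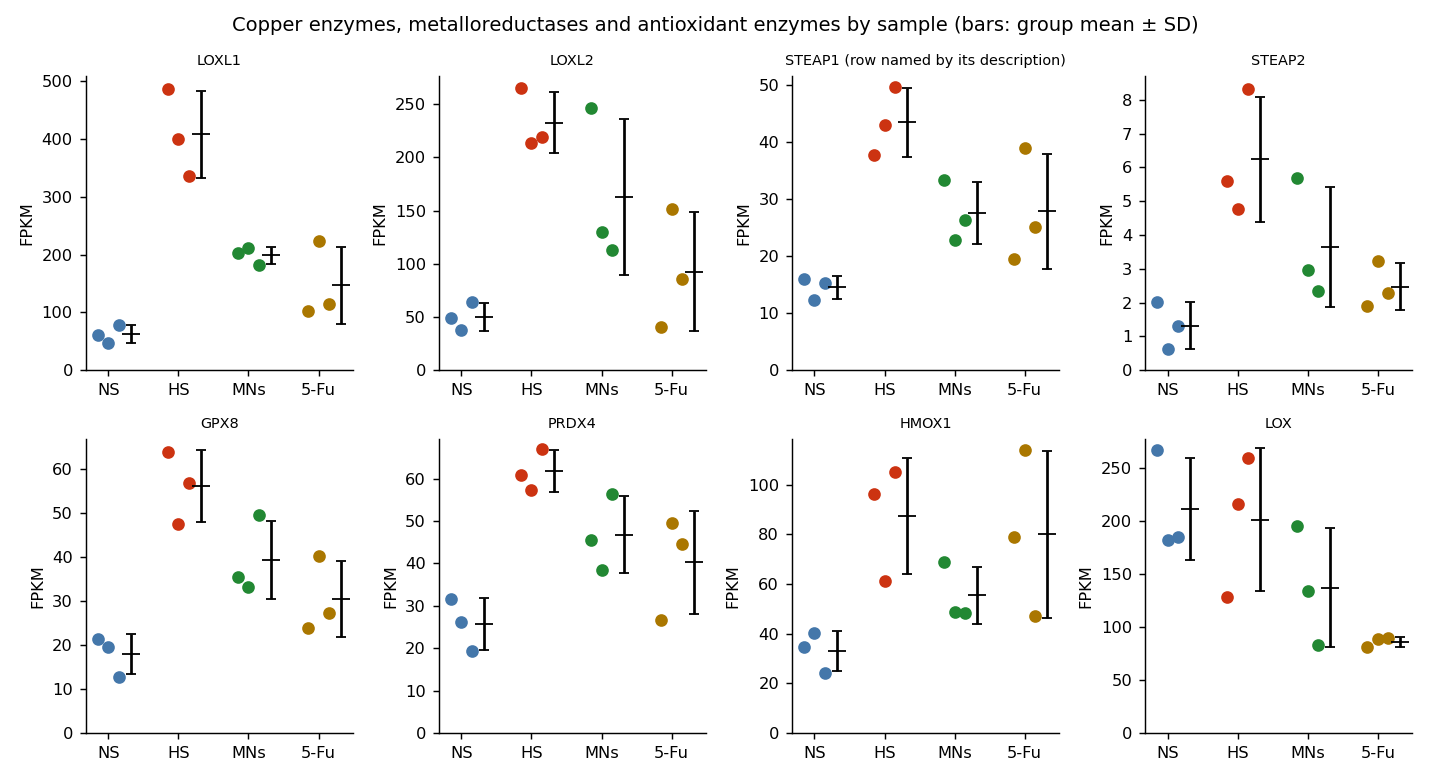
FPKM by sample of the 7 list genes called in HS against NS and of LOX, by group, with bars for the group mean ± SD (n = 3). In the 7 called genes all HS samples lie above all NS samples, which largely follows from their choice as called genes. LOX overlaps between NS and HS and is at 80.9 to 89.3 with 5-Fu injection.

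The other 3 lists held no called gene in any of the 6 comparisons by limma or by voom. Among all genes tested, 0 to 5.00% were called by limma, depending on the comparison. Of 8 tested genes of mitochondrial copper delivery, 0 had an unadjusted p under 0.05 in HS against NS and 2 in 5-Fu injection against HS. The shares of all genes were 23.4% and 26.0%. The largest changes were those of SCO2, a copper chaperone of cytochrome c oxidase (log2 fold change -0.50, adjusted p 0.370, in drug-loaded MNs against 5-Fu injection), and CMC2, a small mitochondrial protein of the same assembly line (0.44, adjusted p 0.240, in 5-Fu injection against NS). Of 11 tested genes of lipoylation and copper-dependent cell death, 1 had an unadjusted p under 0.05 in HS against NS and 2 in 5-Fu injection against HS, beside the same 23.4% and 26.0% of all genes. GCSH, a lipoylated protein of glycine cleavage, had the largest value (0.73, adjusted p 0.375, in drug-loaded MNs against HS).

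Of 16 metallothionein and glutathione genes, 7 were tested, and 1 had an unadjusted p under 0.05 in HS against NS, beside 23.4% of all genes. MT4, the metallothionein of stratified epithelium, had an FPKM of 459, 247 and 133 in NS, 1214, 211 and 467 in HS, 1599.8, 731 and 4696 in drug-loaded MNs, and 2195, 554 and 3291 with 5-Fu injection. Its log2 fold change was 2.83 (SE 0.86) in drug-loaded MNs against NS, with groups that do not overlap and an adjusted p of 0.178. Keratinocyte markers, given above, overlap only at the edge between these groups (2077 to 3593 and 3565 to 8390), and their part in the MT4 values was not tested. A row described as MT3 encloses the MT4 row on the same strand, so reads of either may be split. It had a log2 fold change of -1.85 (SE 0.82) in drug-loaded MNs against 5-Fu injection with an adjusted p of 0.323.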

How the data were processed

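The 12 samples (4 groups of 3) were grouped by their labels. From poly-A selected RNA of ear tissue taken through its full thickness, the authors sequenced libraries and deposited FPKM values per gene. Aligner, counter, strand setting and build are not given in the sources used here. Multiplied by gene length, 100% of values fell within 0.05 of whole multiples of 1 step per sample, so reads on genes were recovered (10521472 to 14043667 per sample; 1 read per kilobase equalled 0.0768 to 0.0972 FPKM). The deposited FPKM were already scaled between samples.

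limma 3.58.1 (R 4.3.3) fitted the 4 groups on log2(FPKM + 1) with a mean-variance trend, over 13287 genes (mean FPKM 1 or more), with Benjamini-Hochberg adjustment in each of 6 comparisons. Fold changes on this scale understate those of low genes. Correlations used Python 3.11.15. The procedure was tested on simulated data. limma voom ran on recovered reads. Alternatives varied the pseudocount, filter, scaling, trend, replicate block, samples in the fit and each replicate.

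Named genes were the members, SPARC, expressed neighbours within 500 kb, the 5 rows most like ATOX1, the 3 most like SLC31A1, called list genes (up to 5 per list and comparison), otherwise the 2 largest changes of a list, and COL1A1, COL3A1 and LOX. COL1A2 was added after its values were seen. The members and lists were chosen with earlier results of these data known. Symbol-less rows were named by description for 13 genes after the table had been seen. Sequences were not used here. A single gene that the naming rule selected is not reported here.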

Additional observations from a re-analysis of the deposited data

Results flagged for a closer look

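CP was the 1 copper gene for which every sample of a treatment lay on 1 side of the HS mean and every sample of the other treatment on the opposite side: the 3 drug-loaded MNs samples (FPKM 1.71 to 4.11) were below the HS mean of 4.14 and the 3 5-Fu injection samples (4.55 to 10.9) were above it. That mean rested on HS replicate 3 (7.88, against 1.95 and 2.59), and without this library the log2 fold change of drug-loaded MNs against HS turned from -0.28 to 0.20. Both treatments share the HS samples, and the direct contrast of drug-loaded MNs against 5-Fu injection had a log2 fold change of -1.01 (SE 0.54) with an adjusted p of 0.395 in limma, so the difference did not pass the test. With 3 samples in each group, single samples were not examined for outliers.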

How the results depend on the processing

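Of the alternatives, a pseudocount of 0.1, a stricter mean FPKM of 5, quantile normalization, rescaling to total reads, voom, no trend, adjusted p alone and removal of the length trend (added after seeing the data) left the count of called copper genes as it was in all 6 comparisons. In 5-Fu injection against HS the count went from 1 to 0 without the filter, with only the groups compared and with the replicate block (SLC31A1 adjusted p 0.0619, 0.116 and 0.0655), and ranged from 0 to 1 with single replicates left out. The replicate number did not pair the samples, which come from different rabbits (correlations of same-numbered deviations -0.269 to 0.441), and under the block LOXL1 was also no longer called in 5-Fu injection against HS (adjusted p 0.0523) or in drug-loaded MNs against NS (0.0624). With only the groups compared LOXL1 in 5-Fu injection against HS had an adjusted p of 0.0986. After rescaling to total reads the median of all log2 fold changes was -0.33 in HS against NS. It was 0.11 in drug-loaded MNs against HS and 0.13 in 5-Fu injection against HS. Without rescaling these medians were -0.01, -0.02 and 0.02. PRDX4 in HS against NS was at 0.91 after rescaling, and CMC2 in 5-Fu injection against NS at 0.23. The cause of these changes was not tested.

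The r of the rows named ATOX1 and SPARC was 0.49 after rescaling to total reads, 0.76 after quantile normalization, 0.53 for deviations from the group means and 0.49 to 0.68 with single samples left out. The sign of small, uncalled changes turned in some settings. Rescaling to total reads gave ATP7B -0.072 in HS against NS and 0.054 in drug-loaded MNs against HS, and CCS -0.15 in HS against NS. Quantile normalization gave ATP7A -0.045 in drug-loaded MNs against HS, and removal of the length trend gave ATP7B 0.0066 there and COX17 0.17 in HS against NS. With single replicates left out, values in HS against NS ranged from -0.14 to 0.34 for ATP7B, -0.33 to 0.14 for COX17 and -0.80 to 0.18 for CP. In drug-loaded MNs against HS they ranged from -0.041 to 0.11 for ATP7A, -0.25 to 0.27 for ATP7B, -0.33 to 0.14 for COX17 and -0.60 to 0.20 for CP. For ATP7B the range was -0.42 to 0.068 in 5-Fu injection against HS and -0.010 to 0.34 in drug-loaded MNs against 5-Fu injection, where it was -0.073 to 0.59 for SLC31A2 and -0.17 to 0.42 for SOD3. Depth limits the row named SPARC most, with 12 to 71 reads per sample.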
